A study of Rattus norvegicus with 20 samples.

Results

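The normal fetal rat testis was described from the 4 control arrays among the 20 arrays of a series that compared fetal testes after exposure of pregnant dams to the phthalate DEHP, its monoester MEHP, the trimellitate TOTM and EHO. The control dams were Han Wistar rats that received corn oil, the vehicle of the series, by oral gavage every day from gestation day 12 to gestation day 19, and the day of collection is not given in the sources used here. Each control array held RNA from the dissected testes of 1 litter, pooled from at least 3 male pups, that is at least 6 testes, and each pool was labelled from 700 ng of total RNA with Cy3 and hybridised to an Agilent whole rat genome array of 60-base probes. The members were chosen by their title as controls and not by any measured value, and treated arrays enter only the check of distances between arrays below. All 4 control arrays lay on 1 slide, so litter and array position cannot be told apart.

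The fetal testis consists of seminiferous cords and the interstitium around them. Sertoli cells form the cords, enclose the fetal germ cells called gonocytes and secrete anti-Müllerian hormone, which removes the female duct. Fetal Leydig cells between the cords take up and synthesise cholesterol, convert it to androgens and secrete Insl3, a peptide hormone that acts on the ligament guiding testis descent. Peritubular myoid cells, interstitial progenitors, blood vessels, macrophages and blood complete the organ, and a dissected testis can carry fragments of the mesonephric ducts or adrenal.

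The promoters of the Leydig hormone Insl3 and the Sertoli hormone Amh are shown because they are the lead markers of the 2 somatic cell types described below. Both run 5′ to 3′ from 250 bases before to 50 bases after the RefSeq start site on build GRCr8. Insl3 lies at chr16:18432939-18433238 on the plus strand and Amh at chr7:9559818-9560117 on the minus strand. Capitals mark exact matches to AAGGTCA, letters bound by the steroidogenic factor Nr5a1.
Insl3: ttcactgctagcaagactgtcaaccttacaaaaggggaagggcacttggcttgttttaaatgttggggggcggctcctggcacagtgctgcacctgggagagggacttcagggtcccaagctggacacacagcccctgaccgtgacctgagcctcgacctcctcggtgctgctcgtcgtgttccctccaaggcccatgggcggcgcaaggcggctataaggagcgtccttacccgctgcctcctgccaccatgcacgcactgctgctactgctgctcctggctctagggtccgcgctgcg
Amh: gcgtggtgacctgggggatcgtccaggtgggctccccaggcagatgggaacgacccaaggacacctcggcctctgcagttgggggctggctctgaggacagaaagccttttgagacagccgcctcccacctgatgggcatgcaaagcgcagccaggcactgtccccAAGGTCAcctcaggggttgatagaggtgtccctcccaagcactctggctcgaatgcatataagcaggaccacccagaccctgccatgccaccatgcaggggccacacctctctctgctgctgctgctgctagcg
The letters AAGGTCA, searched on both strands, began 84 bases before the start site of Amh (position -84, plus strand) and were absent from this window of Insl3. They occurred in 0 of 12 promoters found for the steroidogenesis genes, in 0 of 7 for the other fetal Leydig cell markers, in 2 of 17 (11.8%) for the Sertoli cell markers, where the other match was Fgf9 at position -41 on the minus strand, and in 1 of 20 (5%) for the gonocyte markers. Of all 27457 promoters of the same length, 1201 (4.37%) held the letters. A match describes the sequence and does not show binding. Only these exact letters were searched and only in this window, so their absence does not show that a promoter lacks a site for Nr5a1.

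Of 43379 spots per array that were not controls of the manufacturer, 79.8%, 65.7%, 72.8% and 77.2% were well above background on controls 1 to 4, and the 75th percentile of the signal was 344, 266, 299 and 342. Control 2 was thus the dimmest array. No spot was saturated. A level is given throughout as log2 of the processed signal minus the array's own 75th percentile of log2 signal, so a level of 0 is a probe brighter than 75% of the array. The spots stood for 35739 genes or unnamed transcripts, called genes here, each read by its brightest probe, and 22668 of them (63.4%) were well above background on all 4 arrays, which is called detected here. Among the 15134 genes with a current symbol, 11648 (77.0%) were detected. This share is the one to set beside the counts of detected list members below. A brightness percentile is the share of all genes on an array that a gene outshines.

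Brightness mixes the amount of RNA with how well a probe binds, so percentiles do not rank RNA abundance. Among 3190 detected genes read by more than 1 probe, the brightest and the dimmest probe differed by a median of 1.85 on the log2 scale, by over 1 in 72.5% and by over 3 in 27.1%. The disagreement was widest for Ube2s, a ubiquitin-conjugating enzyme, whose probes averaged from -5.6 to 5.9. It was next widest for the ribosomal protein gene Rpl28, from -3.4 to 7.1, and the respiratory complex I gene Ndufc2, from -5.4 to 4.8. Low values below are therefore given as low probe brightness and not as low expression. The order of the arrays also changed with the probe. Of the genes named here, 47 had further probes detected on all 4 arrays, 60 probes in all. The deviation of control 2 from the mean of the others had the same sign as on the brightest probe in 32 of the 60, and the highest array was the same in 30. A statement below on which array was high or low therefore holds for the brightest probe of the gene.

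Control 2 stood apart from the other controls. Over probes detected on all arrays, the SD of the difference between control 2 and each other control was 3.60 to 3.97 times that of repeat spots within an array, against a lowest value of 1.87 among the 6 control pairs and a median of 2.76. Its distance to replicate 3 of the group given MEHP was 1.11 times spot noise, closer than any pair of controls. Control 3 lay at 1.32 and control 4 at 1.77 from replicate 3 of the group given DEHP, and control 1 at 1.71 from replicate 2 of the group given TOTM. Whether arrays share RNA or carry exchanged labels was not tested. Values are therefore given for each array, and summaries are also given without control 2.

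The defining markers of Leydig, Sertoli and germ cells were all detected on every array. Insl3 had levels of 5.51, 6.26, 6.37 and 5.51 on controls 1 to 4 and outshone 98.9% of genes. Controls 2 and 3 were the higher pools for Insl3, and its SD of 0.47 (n = 4) was 0.50 without control 2. Amh, whose protein is the anti-Müllerian hormone, had levels of 5.61, 5.33, 5.87 and 5.53 (SD 0.22, n = 4; percentile 98.6), with control 2 the lowest. Cyp17a1, the enzyme that turns progestins into androgens, had levels of 5.09, 5.38, 5.46 and 4.96 (SD 0.23, n = 4; percentile 98.1). Ddx4, the germ cell RNA helicase also called Vasa, had levels of 2.48, 2.42, 2.34 and 2.12 (SD 0.16, n = 4; percentile 90.3). With this scaling the 4 pools thus spanned less than 1 log2 unit for each of these markers. The SD of Amh was 0.334 with quantile normalization and 0.251 with median scaling, and that of Ddx4 was 0.172 and 0.242. The SDs of Insl3 and Cyp17a1 include spots that the scanner software marked as outliers, as neither gene had unmarked spots on every array. In whole testes, fewer cells of a type and less RNA per cell cannot be told apart. On rat build rn4, as the array files give it, the probe of Insl3 lies at chr16:18891252-18891311, that of Amh at chr7:10417373-10417432, that of Cyp17a1 at chr1:251965532-251965591 and that of Ddx4 at chr2:43967563-43967622. Which exon or untranslated region these probes match was not analysed here.

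**Figure D1:**
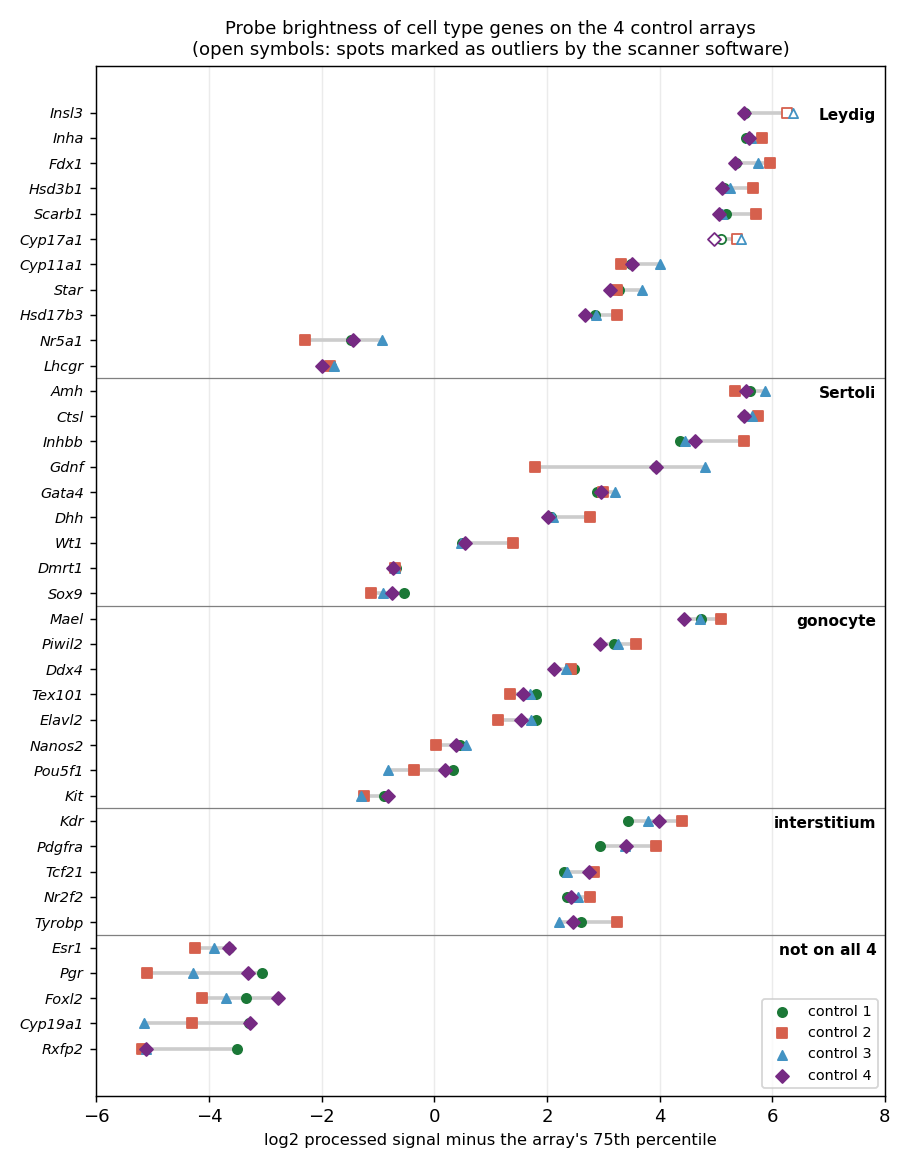
Levels of cell type genes on the 4 control arrays (x axis, log2 processed signal minus the array's 75th percentile), with 1 symbol per array and a grey line over the range. Open symbols are spots that the scanner software marked as outliers. Insl3, Amh and Cyp17a1 lie near 5 to 6, most genes vary little between pools, and Gdnf, Wt1 and Inhbb have control 2 apart. The last block holds genes that were not well above background on every array.

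Most steroidogenesis genes were bright, while other Leydig genes below were less so. All 17 steroidogenesis genes were detected, against 77.0% of all genes with a symbol. Their median percentile was 94.2 ± 0.781 (SD, n = 4) against 64.5 for all genes with a symbol. In the brightest 10% of genes lay 12 of the 17, against 2316 of the 15134 genes with a symbol. Lhcgr, Nr5a1 and Srd5a1 lay below 64.5. Fdx1, the ferredoxin that hands electrons to mitochondrial P450 enzymes, led the list with levels of 5.36, 5.96, 5.75 and 5.35. Hsd3b1, which makes progesterone from pregnenolone, had levels of 5.15, 5.66, 5.26 and 5.12. Scarb1, the receptor for HDL cholesterol, had levels of 5.18, 5.71, 5.11 and 5.05. For Fdx1, Hsd3b1 and Scarb1, control 2 was the highest array, but it was the lowest on the second probe of Scarb1 (3.09, 2.44, 3.60 and 2.90).

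Some other steroidogenesis genes were highest on control 3. Star, which brings cholesterol to the inner mitochondrial membrane, had levels of 3.29, 3.25, 3.70 and 3.12. Cyp11a1, which cleaves the side chain of cholesterol there, had levels of 3.50, 3.32, 4.01 and 3.51. Fdxr, the reductase that feeds Fdx1, had levels of 4.31, 4.26, 4.57 and 4.29. Control 3 was the highest for all 3 of these genes, but Fdx1, which Fdxr feeds, was highest on control 2. Hsd17b3, which makes testosterone from androstenedione, had levels of 2.86, 3.24, 2.88 and 2.67 (percentile 92.7).

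Regulators of steroidogenesis were detected at middling brightness. Lhcgr, the receptor for luteinizing hormone, had levels of -1.84, -1.86, -1.78 and -1.99 (percentile 48.4), so close that the SD was 0.09. Nr5a1, the nuclear receptor that binds the letters printed in the Amh promoter, had levels of -1.48, -2.30, -0.93 and -1.45 (percentile 54.2). Its SD of 0.56 was the largest of the list and fell to 0.31 without control 2, the lowest array. Por, the reductase of microsomal P450 enzymes such as Cyp17a1, was likewise lowest on control 2, with levels of 2.76, 1.88, 3.15 and 2.71. Srd5a1, a 5-alpha reductase, was the dimmest member, with levels of -1.85, -2.48, -1.85 and -2.29 (percentile 44.0).

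Among the 9 other fetal Leydig cell markers, all detected, only Insl3 and Inha lay in the brightest 10% of genes, and the median percentile was 74.1 ± 2.12 (SD, n = 4). Inha, the inhibin alpha subunit, which Sertoli cells also make, had levels of 5.53, 5.81, 5.63 and 5.58. Nr0b1, a repressor of Nr5a1 also called Dax1, had levels of -0.31, 0.03, -0.17 and -0.49. Dlk1, a Notch-like membrane protein, had levels of -0.24, -0.47, 0.22 and -0.19. Of the hedgehog targets, Ptch1 and Hhip sat near the middle of the array, at percentiles 55.1 and 51.6, while Gli1 lay at 84.37. Hhip had levels of -1.24, -2.13, -1.70 and -1.80, highest on control 1, while its second probe was highest on control 2.

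Genes of cholesterol synthesis and uptake, read in whole testes and not in Leydig cells alone, were bright too. Of 26 genes on the array 25 were detected, 14 lay in the brightest 10% of genes, and the median percentile was 90.04 ± 0.695 (SD, n = 4). Msmo1, a sterol C4 demethylase, had levels of 5.89, 6.29, 6.30 and 6.16. Fdps, which makes farnesyl diphosphate, had levels of 5.92, 6.06, 6.13 and 6.27. Hmgcs1, an early synthase of the pathway, had levels of 5.55, 5.89, 5.69 and 5.55. Each of these enzymes had an SD below the 0.249 that was the median of all genes. The sterol sensor Insig1 had levels of 4.17, 4.86, 4.22 and 4.30, and the transcription factor Srebf2 levels of -1.33, -2.22, -1.65 and -1.70. Control 2 was the highest array for Insig1 and the lowest for Srebf2.

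Sertoli cell genes were all detected, 24 of 24 on the array, with a median percentile of 82.0 ± 1.02 (SD, n = 4) and 8 in the brightest 10% of genes. Beside Amh, the brightest were Ctsl, a lysosomal protease, with levels of 5.50, 5.75, 5.64 and 5.49, and Inhbb, the inhibin beta B subunit, with levels of 4.36, 5.50, 4.44 and 4.63. Control 2 was above every other pool for Inhbb, whose SD fell from 0.52 to 0.14 without it. The other 2 probes of Inhbb read 1.84, 1.28, 1.85 and 1.478, and 0.87, 0.24, 0.58 and 1.02, both lowest on control 2, so the high value rests on 1 probe of 3. Rhox5, an X-linked homeobox gene of Sertoli cells, had levels of 3.95, 3.85, 3.59 and 3.54. Gata4, a transcription factor of Sertoli and Leydig cells, had levels of 2.90, 2.99, 3.22 and 2.95, and Clu, a secreted chaperone, levels of 2.55, 2.79, 2.72 and 2.57. SDs of these 3 genes were 0.20, 0.14 and 0.11, below the list's median of 0.251.

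Several Sertoli cell genes had 1 pool apart. Gdnf, which sustains germ cell stem cells, had levels of 3.94, 1.79, 4.81 and 3.93, the largest SD of the list at 1.28, and 0.50 without control 2. Its second probe read -1.85, -2.93, -2.41 and -2.24, again lowest on control 2 but within a narrower range. That probe was well above background on only 3 arrays. Dhh, the hedgehog ligand that induces fetal Leydig cells, had levels of 2.08, 2.76, 2.11 and 2.02. Wt1, a transcription factor required for Sertoli cell identity, had levels of 0.48, 1.41, 0.48 and 0.54. In Dhh and Wt1 control 2 stood above the other 3 pools, which lay close together, so that the SD fell from 0.35 to 0.05 for Dhh and from 0.45 to 0.04 for Wt1 without control 2. The second probe of Dhh read -0.77, -0.9996, -0.92 and -0.89, lowest on control 2. Kitlg, the ligand of Kit on germ cells, had levels of 0.65, 1.24, 1.24 and 1.18, with control 1 the low pool, and on its second probe control 1 was the highest.

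Several factors that set Sertoli fate read at middling brightness, while Wt1 and Gata4, given above, lay at percentiles 80.55 and 93.03. Sox9, the switch of testis determination, had levels of -0.54, -1.13, -0.91 and -0.75 (percentile 65.6), and its relative Sox8 had levels of -1.42, -2.46, -2.13 and -1.99. Dmrt1, which keeps Sertoli cells male, had levels of -0.68, -0.70, -0.70 and -0.73. Its SD of 0.02 was among the 5 smallest of all genes with a symbol. Fshr, the receptor for follicle-stimulating hormone, had levels of -0.69, -1.16, -1.08 and -0.50, and Fgf9, a growth factor of testis determination, levels of -1.79, -1.68, -1.87 and -1.66. The cystatin Cst12 read -1.12, -1.57, -0.87 and -1.37. Over the 16 gonad transcription factors the median percentile was 69.9 ± 1.73 (SD, n = 4), and 15 were detected.

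Gonocyte genes were detected without exception, 21 of 21, at a median percentile of 73.4 ± 0.797 (SD, n = 4). The brightest were Mael and Piwil2, genes of the piRNA pathway, which silences transposons in male germ cells. Other genes of the pathway read at middling brightness, such as Tdrd1 at percentile 73.1 and Mov10l1 at 62.5. Mael had levels of 4.74, 5.08, 4.72 and 4.44 (percentile 97.5), and Piwil2 levels of 3.19, 3.58, 3.25 and 2.94 (percentile 93.8). Control 2 was the highest and control 4 the lowest array for both. Tex101, a germ cell surface protein, had levels of 1.80, 1.34, 1.71 and 1.58, and the RNA-binding protein gene Elavl2 levels of 1.80, 1.12, 1.71 and 1.54. For both, control 1 was highest and control 2 lowest.

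Genes that mark stages of germ cell development were all above background. Nanos2, an RNA-binding protein of the male germ cell fate, had levels of 0.45, 0.03, 0.56 and 0.39. The pluripotency factor Pou5f1 had levels of 0.33, -0.36, -0.82 and 0.19, the largest SD of the list at 0.53. Lin28a, which blocks let-7 microRNAs, had levels of -0.68, -0.61, -0.63 and -0.58, with an SD of 0.04. Dnmt3l, a cofactor of DNA methylation in prospermatogonia, had levels of -0.70, -0.14, -0.10 and -0.54. Kit read at -0.90, -1.26, -1.30 and -0.82, and Sycp3, a component of the meiotic synaptonemal complex, at -0.08, -0.17, -0.37 and -0.54.

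The interstitium outside the Leydig cells was represented by peritubular and progenitor genes, 13 of 13 detected, with a median percentile of 90.5 ± 0.508 (SD, n = 4). Dcn, a matrix proteoglycan, had levels of 3.32, 3.65, 3.79 and 3.49. Pdgfra, a receptor of Leydig progenitors, had levels of 2.95, 3.94, 3.39 and 3.40. The progenitor transcription factors Tcf21 (2.30, 2.84, 2.36 and 2.75) and Nr2f2 (2.36, 2.76, 2.56 and 2.43) had their lowest level on control 1 and their highest on control 2. Des, the muscle intermediate filament, was instead highest on control 3, with levels of 2.17, 2.05, 2.79 and 2.62. Lum, a keratan sulfate proteoglycan, had the largest SD of the list at 0.56, with levels of -2.30, -1.13, -1.36 and -2.09.

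Vessels, macrophages and blood were all read in the testes. Of 16 endothelial genes 15 were detected, at a median percentile of 63.2 ± 1.86 (SD, n = 4). Kdr, the main VEGF receptor, had levels of 3.43, 4.39, 3.79 and 3.98 and was the only endothelial gene in the brightest 10% of genes. The tight junction gene Cldn5 had levels of 1.61, 2.25, 1.77 and 1.71. The adhesion gene Pecam1 read at -1.97, -2.48, -2.44 and -1.99, and the angiopoietin receptor Tek at -3.38, -3.67, -4.14 and -3.90, not well above background on any array. Of 15 macrophage and leukocyte genes 13 were detected (median percentile 68.1 ± 2.07, SD, n = 4). The signalling adaptor Tyrobp had levels of 2.60, 3.24, 2.22 and 2.46, and the complement gene C1qb levels of 1.59, 2.23, 1.71 and 1.97, both highest on control 2, though the second probe of Tyrobp was highest on control 1. Csf1r, the receptor that macrophages need, read lowest on control 2, with levels of -1.43, -2.05, -1.02 and -1.25, so the list did not move as one. The chemokine receptor Cx3cr1 was not well above background on any array.

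Erythroid genes were all detected, 10 of 10, at a median percentile of 88.8 ± 1.24 (SD, n = 4). The alpha globin gene Hba-a3, which is not among the 10, was the fourth brightest gene with a symbol, with levels of 9.51, 10.01, 9.44 and 9.54. Hbb-b1, an adult beta globin, had levels of 6.94, 7.97, 7.75 and 7.77, lowest on control 1. The embryonic globin Hbe1 had levels of 3.58, 3.20, 3.12 and 3.87. The globin chaperone Ahsp (3.80, 4.17, 3.45 and 3.87) and the haem synthesis gene Alas2 (3.65, 3.93, 3.38 and 3.80) were highest on control 2 and lowest on control 3. The list took 0.145%, 0.209%, 0.191% and 0.226% of the summed signal on controls 1 to 4. Globin probes can bind RNA of several near-identical genes, so these values belong to the family rather than to 1 gene.

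Markers of neighbouring tissues were also read. Of 14 mesonephric duct genes 11 (78.6%) were detected, near the 77.0% of all genes with a symbol (median percentile 60.6 ± 1.85, SD, n = 4). The count alone therefore does not show duct tissue in the pools. The keratin gene Krt18 was the brightest, with levels of 4.80, 5.56, 5.17 and 4.78, and Emx2, also a gene of the early gonad, had levels of 1.63, 2.84, 1.87 and 2.48, against a second probe that was lowest on control 2. The cell adhesion gene Epcam read at 0.91, 0.89, 0.75 and 0.64, while Cdh1, epithelial cadherin, read at -1.35, 0.48, -1.25 and -0.94. Control 2 was 1.66 above the mean of the others for Cdh1, and Epcam showed no such gap. The list took between 0.0331% and 0.0420% of the summed signal.

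Of 7 adrenal cortex genes 5 (71.4%) were detected, against 77.0% of all genes with a symbol. Hsd11b2, which inactivates glucocorticoids, had levels of 3.14, 3.92, 3.34 and 3.46, and Mrap, the accessory protein of the ACTH receptor, levels of 1.95, 2.51, 2.23 and 2.12. Cyp11b1, the last enzyme of glucocorticoid synthesis, had levels of -0.59, 0.55, 0.50 and 0.04. Akr1b7, an aldo-keto reductase, had levels of -0.65, -1.76, -0.82 and -0.65, with control 2 low. The defining adrenal enzyme Cyp21a1 was well above background on 1 array (-2.81, -3.12, -3.22 and -3.62) and the ACTH receptor Mc2r on 2 arrays (-2.81, -3.58, -3.55 and -2.53).

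Ovary, liver, nerve and muscle genes completed the other tissues, and their shares detected stand against 77.0% of all genes with a symbol. Of 8 fetal ovary genes 6 (75%) were detected, led by Wnt4 at 1.67, 1.69, 1.81 and 1.73. The granulosa cell factor Foxl2 was well above background on 1 array and the aromatase gene Cyp19a1 on none. Of 8 liver genes 7 (87.5%) were detected, led by the fetal serum protein gene Afp at 1.79, 2.39, 2.24 and 1.43. Albumin, Alb, read -2.53, 2.11, -2.10 and -3.44 on its brightest probe, 4.79 higher on control 2 than the mean of the others. Its other 2 probes read -2.78, -2.52, -3.36 and -2.71, and -2.68, -1.91, -3.86 and -3.74. Both were also highest on control 2, by smaller margins, so the size of the gap rests on 1 probe. These other probes were well above background on only 3 and 2 arrays, so they do not settle its direction either. Of 11 nerve and glia genes 7 (63.6%) were detected, while the synaptic gene Snap25 was not well above background on any array. Of 7 skeletal muscle genes 5 (71.4%) were detected. The embryonic myosin gene Myh3 (1.82, 1.61, 0.82 and 1.02) and the muscle regulator Myog (-1.60, -2.19, -3.07 and -2.89) were both highest on control 1. None of 8 Y-linked and X inactivation genes could be named among the probes, so the sex of the pools was not checked here.

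Olfactory receptors served as a reference for genes that a testis is not known to need as a group. Their median percentile was 13.3 ± 0.797 (SD, n = 4), and 148 of 1103 were detected. Vomeronasal receptors had a median percentile of 20.8 ± 0.967 (SD, n = 4), with 6 of 33 detected.

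**Figure D2:**
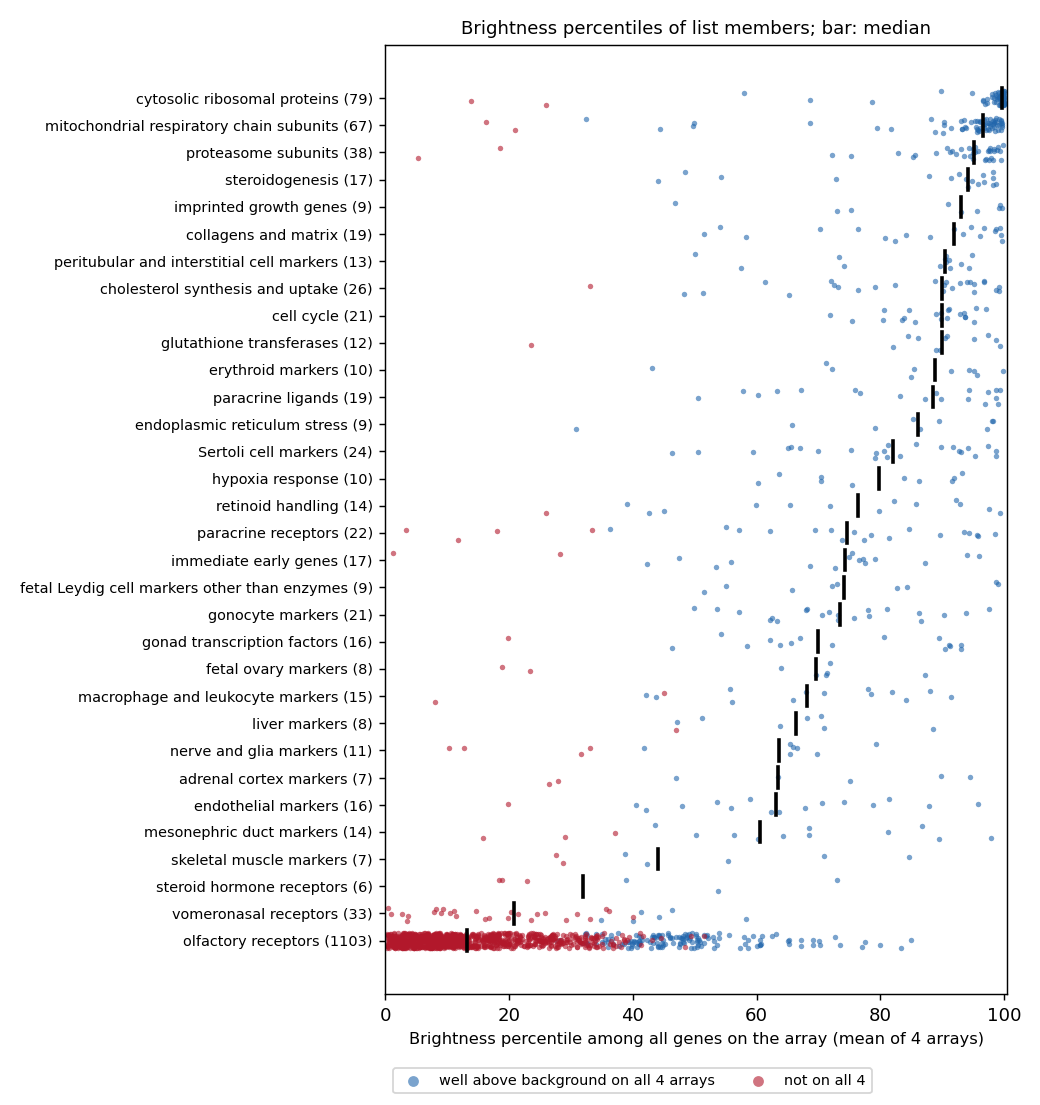
Brightness percentile of each list member among all genes on the array (x axis, mean of 4 arrays), by gene list (y axis, number of genes on the array in brackets). Blue points were well above background on all 4 arrays and red points were not, and the black bar is the mean over arrays of the list's median percentile. Ribosomal proteins sit at 99.6, steroidogenesis genes at 94.2, gonocyte markers at 73.4 and olfactory receptors at 13.3.

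Signals between these cell types were read from both sides, with median percentiles of 88.5 ± 1.11 for 19 ligands and 74.6 ± 1.40 for 22 receptors (SD, n = 4). All 19 ligands and 18 of the receptors were detected. Igf2, the fetal growth factor, was the brightest ligand, with levels of 5.87, 7.14, 6.38 and 6.55. Igf1 had levels of 3.98, 4.92, 4.42 and 4.54 on the brightest of 4 probes, the dimmest of which averaged -2.9. Both growth factors were highest on control 2 and lowest on control 1. The chemokine gene Cxcl12 had levels of 3.35, 3.99, 2.95 and 3.27, and Pdgfa, a Sertoli signal to the interstitium, levels of 1.89, 1.92, 2.25 and 2.14.

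Receptors ranged over most of the brightness scale. Notch3, a receptor of Leydig progenitors and vessel walls, had levels of 5.46, 5.66, 5.52 and 5.34. Igf2r, which clears Igf2, had levels of 3.47, 3.80, 4.08 and 4.11, and Fgfr2 levels of 2.87, 3.90, 2.78 and 3.08 with control 2 apart. Amhr2, the receptor of the Amh protein, read at 0.38, 0.11, 0.75 and 0.51, and was highest on control 3 as Amh was. The Gdnf receptor subunits Gfra1 (0.18, 0.39, -0.11 and 0.00) and Ret (-1.34, -0.89, -1.64 and -1.53) were highest on control 2, but the other probes of both were lowest there. Those of Ret were each well above background on only 3 arrays. Rxfp2, the Insl3 receptor of the gubernaculum, was not well above background on any array, nor was the insulin receptor Insr.

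Steroid hormone receptors had a median percentile of 31.9 ± 2.94 (SD, n = 4) over 6 genes, of which 3 were detected. The estrogen receptor Esr1 had levels of -3.64, -4.26, -3.91 and -3.66 and was not well above background on any array, while Esr2, present in germ cells, read at -2.05, -2.72, -2.29 and -2.54 and was detected. The progesterone receptor Pgr was well above background on 1 array. The glucocorticoid receptor Nr3c1, at -0.43, 0.34, -0.26 and -0.22, was the brightest of the list. Esr1 was read by 1 probe, so another probe cannot be set beside its values.

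Retinoid genes matter because retinoic acid starts meiosis in the fetal ovary and is degraded in the fetal testis. Of 14 genes 13 were detected (median percentile 76.4 ± 2.37, SD, n = 4). The binding protein gene Crabp2 was the brightest, with levels of 6.15, 6.63, 6.45 and 6.45. Cyp26b1, the enzyme that degrades retinoic acid in the testis, had levels of 2.59, 2.54, 3.03 and 2.999, and its relative Cyp26a1 was well above background on 1 array. Aldh1a1 and Aldh1a2 synthesise retinoic acid. Aldh1a1 held steady at 2.89, 2.97, 3.103 and 2.94, while Aldh1a2 varied from -1.05 on control 1 to 0.39 on control 2, with -0.31 and 0.27 on controls 3 and 4.

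The brightest genes were mostly those of protein synthesis. Of the 25 brightest genes with a symbol, 16 were cytosolic ribosomal proteins. Rpl14 came first, with levels of 9.72, 10.08, 9.85 and 9.82, followed by Rps6 at 9.38, 9.87, 9.77 and 9.57 and Rplp1 at 9.48, 9.91, 9.69 and 9.51. The others included the ubiquitin gene Ubb (8.92, 8.97, 9.17 and 8.80), the chaperone gene Hsp90ab1 (8.52, 8.82, 8.84 and 8.56), the elongation factor gene Eef1a1 (8.30, 8.53, 8.32 and 8.07) and the ferritin gene Ftl1 (8.23, 8.29, 8.19 and 8.08). Control 2 was the highest array for 21 of the 25, against 7859 of all 22668 detected genes. Bright genes as a group read high on control 2 with this scaling. Over 19 ribosomal protein genes with unmarked spots, control 2 lay 0.27 above the other controls as a median, but 0.02 above with quantile normalization. The count of 21 was not recomputed under other scalings. Of 79 ribosomal protein genes 77 were detected and 73 lay in the brightest 10% of genes, and together they took 12.1% ± 0.438 (SD, n = 4) of the summed signal. Ribosomal proteins have many processed copies in the genome, so a probe may read more than 1 of them.

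Signal was concentrated in few genes. The 10 brightest genes took 6.49% ± 0.326 of the summed signal, the 100 brightest 26.6% ± 0.591 and the 1000 brightest 64.6% ± 1.03 (SD, n = 4). Respiratory chain subunits took 1.62% ± 0.107 over 67 genes (median percentile 96.6), and Cox6a1 led them at 7.02, 7.54, 7.16 and 7.14. Proteasome subunits took 0.799% ± 0.0109 over 38 genes (median percentile 95.2), led by Psmd2 at 7.60, 7.98, 7.69 and 7.59. The 17 steroidogenesis genes together took 0.208% ± 0.00919 (SD, n = 4), and the 26 cholesterol genes 0.247% ± 0.0171.

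Genes of growth and matrix were bright as well. Imprinted growth genes had a median percentile of 93.0 ± 1.32 (SD, n = 4), with 9 of 9 detected. The cell cycle inhibitor Cdkn1c led with levels of 7.06, 7.24, 7.04 and 6.72, and Ndn, a MAGE family gene, followed Igf2 at 6.11, 6.76, 6.10 and 6.00. Cell cycle genes were detected in 21 of 21 cases (median percentile 89.9 ± 1.02, SD, n = 4). The mitotic kinase gene Cdk1 had levels of 4.39, 4.68, 4.52 and 4.34, and the replication helicase gene Mcm5, the most variable of the list, levels of -0.13, -1.32, 0.49 and -0.01.

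Collagen and matrix genes had a median percentile of 91.9 ± 1.90 (SD, n = 4), with 19 of 19 detected. Col1a2 had levels of 6.82, 7.90, 7.53 and 7.73, Col3a1 levels of 6.30, 7.10, 7.04 and 6.91, and Col1a1 levels of 5.78, 6.69, 6.66 and 6.60. Control 1 was the lowest pool for all 3 fibrillar collagens, and the other pools lay close together. On the other probes of Col1a1 and Col1a2, which are dimmer, controls 1 and 2 were both low: the second probe read 3.60, 3.58, 4.73 and 4.35 for Col1a1 and 3.20, 3.15, 4.26 and 4.04 for Col1a2. The matrix protein gene Sparc (5.47, 5.69, 5.91 and 5.65) and the mesenchymal filament gene Vim (5.26, 5.47, 5.71 and 5.43) were also lowest on control 1, by a smaller margin. The list took 0.322%, 0.442%, 0.465% and 0.498% of the summed signal on controls 1 to 4.

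Glutathione transferases, which detoxify and in the gonad also isomerise steroids, had a median percentile of 89.9 ± 1.03 (SD, n = 4), with 11 of 12 detected. Gsta1 had levels of 6.42, 6.67, 6.54 and 6.16 and Gstp1 levels of 5.45, 5.81, 5.68 and 5.55, while Gsta2 read at 1.52, 1.38, 2.01 and 1.21. Alpha class transferases are close copies of each other and their probes may read more than 1. Of the chaperones induced by endoplasmic reticulum stress, Hspa5 had levels of 4.92, 4.98, 5.35 and 5.28 and Hsp90b1 levels of 4.98, 5.46, 5.23 and 5.21. Pdia4, a disulfide isomerase of the same compartment, was the most variable of that list, with levels of 1.03, 2.50, 1.15 and 1.85.

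Spread between litter pools was measured over 22222 genes detected with unmarked spots on all 4 arrays. The median SD of the level was 0.249, the central 90% of genes ran from 0.0919 to 0.498, and 50.5% of genes were under 0.25. An SD over 0.5 was found in 1076 genes (4.84%) and an SD over 1 in 37. Without control 2 the same genes had a median SD of 0.173, and 401 (1.80%) exceeded 0.5. Over 193 probes printed 10 times on each array, the SD between arrays exceeded the SD between spots in 168, and the median ratio of the first to the second was 2.51. The median SD was 0.277 in the dimmest and 0.228 in the brightest of 5 equal groups of these genes.

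**Figure D3:**
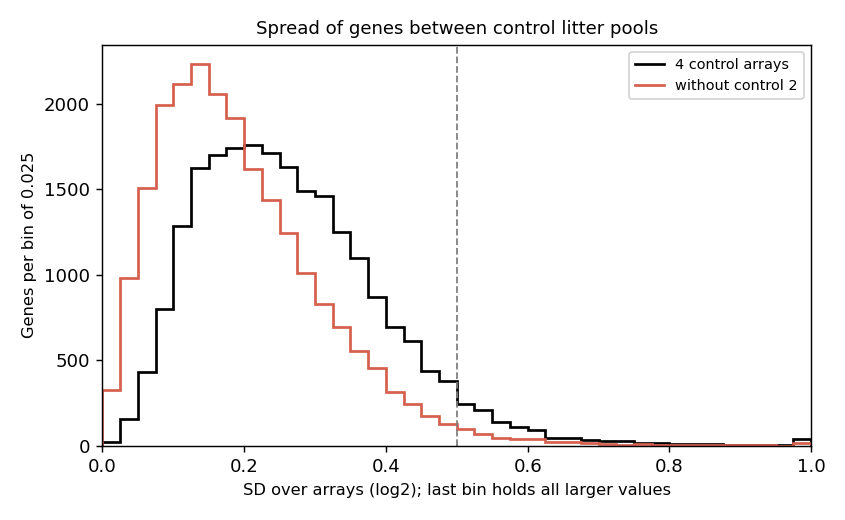
Number of genes per bin of 0.025 (y axis) by SD of the level over control arrays (x axis, log2), for all 4 arrays in black and without control 2 in red over the same 22222 genes. The dashed line marks 0.5, beyond which lie 1076 genes with all 4 arrays and 401 without control 2.

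Spread was also read list by list, over genes with unmarked spots on every array, so Insl3 and Cyp17a1 are not included. Against 4.84% of all genes, an SD over 0.5 was found in 2 of 16 steroidogenesis genes (Nr5a1 and Por), 0 of 8 other Leydig markers, 1 of 23 cholesterol genes, 2 of 24 Sertoli genes (Gdnf and Inhbb) and 1 of 21 gonocyte genes (Pou5f1). Median SDs were 0.242, 0.179, 0.160, 0.251 and 0.265 for these lists, and 0.133, 0.153, 0.136, 0.174 and 0.179 without control 2. Peritubular (0.323), erythroid (0.337) and adrenal cortex (0.329) genes had median SDs above the 0.249 of all genes. The collagens, at 0.357, and the skeletal muscle genes, at 0.411, kept median SDs of 0.306 and 0.420 without control 2. Immediate early genes, at 0.25, had 0.090 without it.

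The 15 genes with a symbol that varied most were not cell type markers of the lists here, apart from Gdnf. Zp2, a gene of the egg coat, had levels of -3.05, 1.41, 1.04 and 1.75, so control 1 lay far below the rest. The transcription factor genes Tlx3 and Foxe1 had their high and low pools in common. Tlx3 had levels of 2.26, -1.88, 1.14 and -1.93 and Foxe1 had levels of 1.99, -1.07, 1.53 and -1.37, high on controls 1 and 3 and low on controls 2 and 4. RT1-Bb, an MHC class II beta chain, had levels of -1.93, 0.62, -2.54 and 1.07, high on controls 2 and 4. Its second probe read -1.69, -1.42, -1.93 and -0.57, in the same order of pools over a smaller range. The ribosomal protein gene Rps26 read -2.04, -0.23, 0.43 and 0.99 and the disulfide isomerase gene Pdia5 1.52, -0.85, 2.06 and 1.41. Pla2g12a, a secreted phospholipase, was low on control 3 alone (3.14, 3.70, 1.29 and 2.89), and the MAP kinase phosphatase gene Dusp8 low on control 2 alone (4.05, 1.99, 4.21 and 3.78). Of the 12 genes with a symbol whose SD exceeded 1, 7 still did so without control 2.

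**Figure D4:**
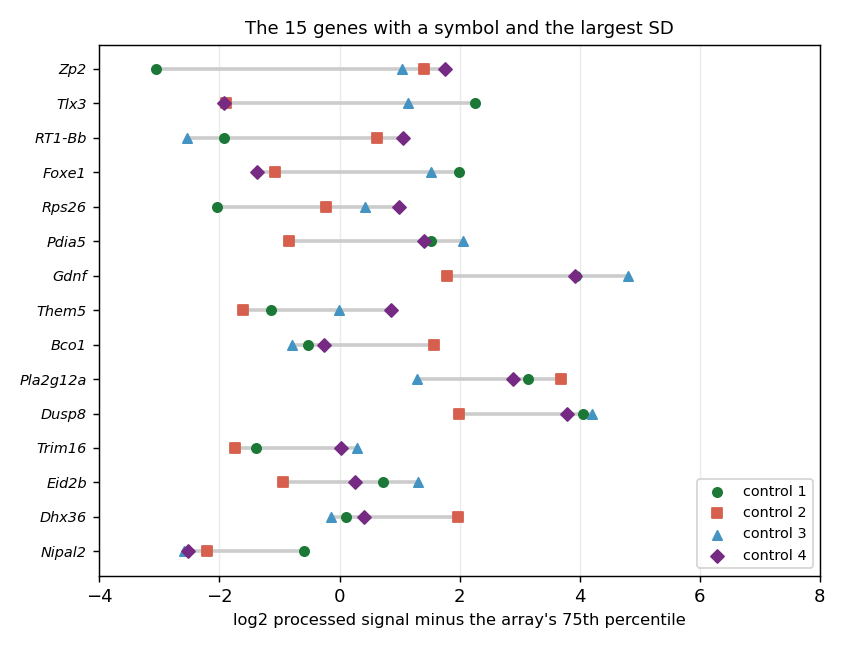
Levels on the 4 control arrays (x axis, log2 processed signal minus the array's 75th percentile) of the 15 genes with a symbol and the largest SD, largest at the top. Zp2 is low on control 1 alone, at -3.05, Tlx3 and Foxe1 are high on controls 1 and 3, and Gdnf and Dusp8 are low on control 2.

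At the other end, Jak3, a cytokine receptor kinase, had levels of 0.16, 0.15, 0.14 and 0.16. Kbtbd6, a ubiquitin ligase adaptor, had levels of -2.13, -2.10, -2.14 and -2.11. With Dmrt1, Mtg2 and C15h8orf58 these were the 5 steadiest genes with a symbol.

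The differences between pools followed mainly 1 axis. The first principal component over the 22222 genes held 63.1% of the variance between arrays with control 2 at one end (loading 0.84), and the second held 22.1% with control 3 at one end (loading -0.86). The deviation of control 2 from the gene means also changed with brightness, from a median of -0.195 in the dimmest to 0.228 in the brightest of these 5 groups. Of the genes with an SD over 0.5, control 2 was the highest array in 399 and the lowest in 556, against 7545 and 9180 of all 22222 genes. Control 2 had the lowest share of spots above background, and the part of depth in these differences was not tested.

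The deviation of a list on control 2 turned on the scaling of the arrays. With the 75th percentile, steroidogenesis genes lay 0.23 above the other controls as a median, fetal Leydig markers 0.16 and Sertoli markers 0.12, and with quantile normalization the same values were -0.01, -0.02 and -0.07. Gonocyte markers lay at -0.18 and cholesterol genes at -0.12, and at -0.004 and -0.29 after quantile normalization. Median scaling gave positive values for all 5 lists, 0.08 for the gonocyte markers and 0.14 for the cholesterol genes, so none of the 5 kept its direction under the 3 scalings. Leaving out 1 array moved several of these medians: Sertoli markers were at 0.06 and gonocyte markers at -0.04 without control 1, cholesterol genes at -0.04 without control 3 and fetal Leydig markers at 0.10 without control 4. All genes together shifted by -0.08 with the 75th percentile and by 0.17 with median scaling.

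Other lists kept their direction on control 2 under each of the 4 scalings. Erythroid markers lay 0.43 above the other controls (0.31 with quantile normalization, 0.69 with median scaling and 0.17 with normexp background correction and quantile normalization). Immediate early genes, whose RNA appears within minutes of a stimulus, lay 0.32 above (0.24, 0.58 and 0.19), and control 2 was the highest array for 12 of 15, against 7545 of all 22222 genes. Their members included Ier2 (3.76, 4.21, 3.86 and 3.92), Jun (3.04, 3.70, 3.24 and 3.23) and the growth arrest gene Btg2 (0.17, 0.92, 0.00 and 0.10). Macrophage markers lay 0.28 above (0.26, 0.54 and 0.16), with control 2 highest for 8 of 13. The erythroid value fell to 0.23 without control 3 and the macrophage value to 0.18 without control 4. Peritubular and interstitial markers lay 0.31 above, but only 0.09 and 0.08 under the 2 settings with quantile normalization. The erythroid markers were also low on control 3, with a median deviation of -0.32 (-0.36 with quantile normalization). Hypoxia response genes lay 0.21 above on control 2 (0.19, 0.47 and 0.08), and endothelial markers lay 0.32 below (-0.11, -0.06 and -0.04 under the same settings). Adrenal cortex markers lay 0.41 above over 5 genes (0.19, 0.67 and 0.18) and liver markers 0.16 above over 7 genes (0.31, 0.41 and 0.17). Steroid hormone receptors lay 0.38 below over 3 genes (-0.08, -0.13 and -0.05). Respiratory chain, mesonephric duct, paracrine ligand and paracrine receptor lists also kept their direction. So did gonad transcription factors and olfactory and vomeronasal receptors. The part of blood, macrophage, immediate early, adrenal or liver RNA in the other differences of control 2 was not tested.

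Controls 1 and 3 had deviations of their own. Collagen and matrix genes deviated by -0.27, -0.11, 0.28 and 0.13 on controls 1 to 4, and by -0.25, -0.22, 0.30 and 0.16 after quantile normalization, over the 16 genes with unmarked spots. With normexp and quantile normalization control 2 was slightly lower than control 1, at -0.222 and -0.189. Skeletal muscle markers deviated by 0.43 on control 1, by 0.38 after quantile normalization, by 0.24 with median scaling and by 0.20 with normexp and quantile normalization, over 5 genes. Their summed signal was 0.00491% on control 1 against 0.00242% to 0.00319% on the others.

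**Figure D5:**
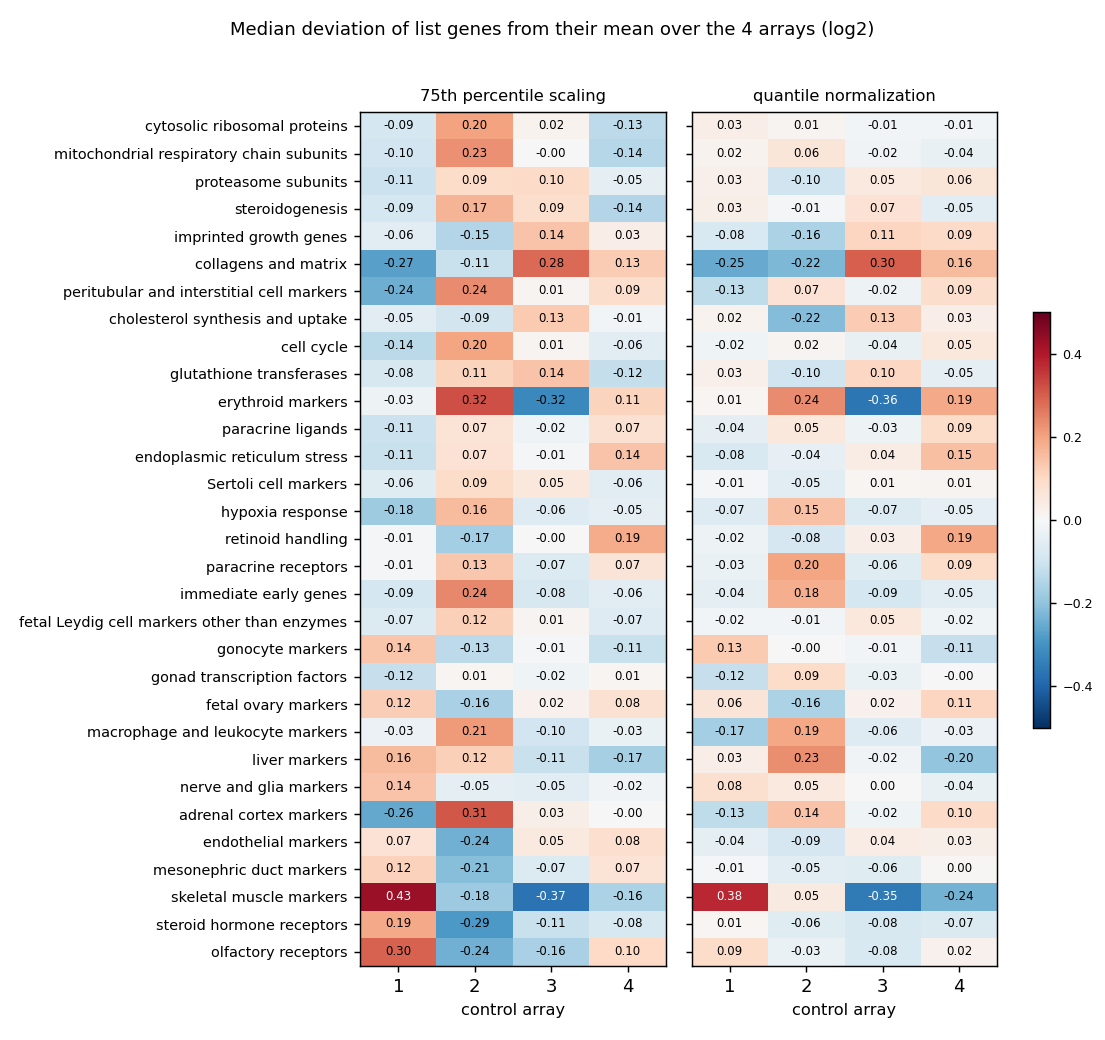
Median deviation of each list's genes from their mean over the 4 control arrays (log2; red above, blue below), per control array (columns), with 75th percentile scaling on the left and quantile normalization on the right. Erythroid markers are 0.32 on control 2 and -0.32 on control 3 on the left, and collagens are -0.27 on control 1. The control 2 column changes sign between the panels for steroidogenesis, fetal Leydig and Sertoli genes.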

How the data were processed

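The 4 control arrays were scanned and read by the authors with Agilent Feature Extraction (version 9.5.3.1 per the file headers, 9.5 per the submitters' processing notes). The deposited intensity used is the processed signal, which per the file headers is background-subtracted and spatially detrended within each array and not scaled between arrays. Here each array was scaled on the log2 scale by its 75th percentile over 43379 spots that are not manufacturer controls, and repeat spots of a probe were averaged. RefSeq tables named 19306 of 41012 probes (11035 by accession, 4950 by symbol, 3321 by an older symbol). Names were refused for 10 probes placed on the mitochondrial genome and 78 placed on another chromosome than the gene. A gene is read by its brightest probe.

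The scanner software marked about 97% of the spots read on its low-gain scan as outliers, which are 87.1% to 89.9% of the brightest 1%. Marked spots were therefore kept for levels, percentiles and detection and left out for the SD over 22222 genes and for list deviations, a choice made after the files were seen. Over probes near the change of scan, the median difference between 2 arrays differed by at most 0.0411 between probes read at low gain on both and probes read normally on both. An offset shared by all arrays is not bounded by this. Depth is not a count here, and the 4 arrays limit the precision.

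No comparison of groups was tested, as the arrays form 1 group, and no p-value is given. The limit on Dixon's ratio used further below only picks measures for a closer look. Errors are SDs over 4 litter pools. The cell type markers, gene lists and alternatives were chosen with earlier results of these data known. Named were the 4 markers, the 25 brightest genes, the 15 genes with the largest and the 5 with the smallest SD, the 5 brightest and the most variable member of each list, members not well above background on every array where a role turns on them, the 10 genes deviating most on the array farthest from the others and the 3 with the widest disagreement between probes. Other list members were named for their role, after their values were seen. Alternatives were quantile and median scaling, normexp background correction (offset 50, limma 3.58.1, R 4.3.3) with quantile normalization, the mean over a gene's probes, no filter on dim probes, marked spots kept or left out, and each array left out in turn. Python 3.11.15 with numpy 2.4.6 and pandas 2.3.3 was used, and the calculations of SD, deviation and rank were tested on simulated data. List genes with no probe named here were not analysed. Values of some list members are not reported here.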

Additional observations from a re-analysis of the deposited data

Results flagged for a closer look

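For each of 212 measures with 4 values (levels of genes, list deviations, and array totals), the gap between the extreme array and its nearest neighbour was set against the group's whole range, with Dixon's 95% critical value for 4 samples as the limit. The limit was passed in 12 measures (5.66%). Some of the genes had been chosen for a large SD or deviation, and some lists share genes. A rate of 1 in 20 for unselected groups therefore does not apply, and whether 12 differs from chance was not tested. Control 2 was the array apart in 7, control 1 in 4, control 3 in 1 and control 4 in 0.

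With control 2 apart, Dhh was high at 2.764 (others 2.018 to 2.111) and Wt1 high at 1.406 (others 0.4765 to 0.5414). The value of Dhh rests on 1 of 2 probes, as the second was lowest on control 2. Ndn was high at 6.76 (others 5.998 to 6.108) on its brightest probe and not the highest on its second, and Zfp36, an mRNA decay factor not well above background on any array, was high at -5.336 (others -5.665 to -5.633). Akr1b7 was low at -1.76 (others -0.8237 to -0.648). The median deviation of endothelial markers was low on control 2 at -0.2408 (others 0.04742 to 0.0828), and that of immediate early genes high at 0.2396 (others -0.08935 to -0.05807).

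With control 1 apart, Kitlg was low at 0.6468 (others 1.177 to 1.244), Col1a1 low at 5.776 (others 6.601 to 6.686) and Zp2 low at -3.054 (others 1.044 to 1.751). Rxfp2, not well above background on any array, was high at -3.497 (others -5.194 to -5.118). The second probe of Kitlg was highest on control 1, and on the other 2 probes of Col1a1 controls 1 and 2 were both low. With control 3 apart, Fdxr was high at 4.566 (others 4.257 to 4.308).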

How the results depend on the processing

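No paired analysis was possible because a single group is described. Of 361 values recomputed under the alternatives, 269 stayed within the spread between arrays (counts within 1.5 times) and 92 moved beyond it. Percentiles are ranks within an array, so median scaling and quantile normalization alone could not change them. Those unchanged values count among the 269, as does the share of the 100 brightest genes under median scaling. Percentiles of some lists and of the defining markers were recomputed, and none moved by more than 4.73. Detection does not depend on scaling and was not recomputed for it. The count of detected genes ran from 22222 with marked spots left out to 28675 with detection on at least 1 array, and was 25118 without control 2. Marked spots left out gave a share of the 100 brightest genes of 13.95%, where the brightest spots are the ones removed, and percentiles of 90.85 for the cholesterol list, 99.66 for Insl3, 99.56 for Amh and 91.31 for Ddx4. The mean over all probes gave a share of 27.89%, percentiles of 95.15 for steroidogenesis, 80.17 for Sertoli markers, 98.45 for Cyp17a1 and 91.8 for Ddx4, and control 2 deviations of 0.06938 for steroidogenesis, -0.06165 for fetal Leydig and 0.001548 for Sertoli markers. Normexp with quantile normalization gave a share of 23.52%, a median SD of 0.1179, 162 genes with an SD over 0.5, and control 2 deviations of -0.004465 for steroidogenesis, 0.03671 for fetal Leydig, -0.08784 for Sertoli and -0.01985 for gonocyte markers. Quantile normalization alone gave -0.01245, -0.01687, -0.07282 and -0.004043 for these 4 lists and -0.2872 for the cholesterol list. Median scaling gave 0.4855, 0.4182, 0.38, 0.0805 and 0.1372, and 1669 genes with an SD over 0.5. Without a filter on dim probes 6182 genes had an SD over 0.5. Leaving out each array in turn, with detection then asked of the 3 left, gave 556 (without control 2) to 1811 genes with an SD over 0.5 and a median SD of 0.1812 (without control 2) to 0.2656. The control 2 deviation then ran from -0.2106 to -0.04225 for gonocyte markers and from 0.1019 to 0.1913 for fetal Leydig markers. It was 0.06027 for Sertoli and -0.04225 for gonocyte markers without control 1, -0.04469 for cholesterol genes and 0.2259 for erythroid markers without control 3, and 0.1771 for macrophage markers without control 4. The causes of these moves were otherwise not tested. Genes below background on an array have no measured order there.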

Other observations

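Genes of the major histocompatibility complex, named RT1 in the rat, were looked at after RT1-Bb was seen among the most variable genes. Of 30 RT1 genes on the arrays 26 were detected, with a median SD of 0.244 (n = 4), close to that of all genes. An SD over 0.5 was found in 3 of the 26, against 4.84% of all genes, and the second largest was 0.693.

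Probes that the array files place on the mitochondrial genome, which carry no gene symbol here, were also read after the naming of probes was checked. Of 48 such probes 44 were detected, their median percentile among probes was 88.1, and 4 lay in the brightest 1% of probes. Their mean levels ran from -5.47 to 8.14.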
